A study of Homo sapiens with 16 samples.

Results

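Integrins, laminins and syndecans hold cells to the extracellular matrix, and their transcripts were followed here through histidine depletion and inhibition of the kinase MEK. The members were 33 of the 22464 named genes on the arrays, chosen by symbol alone: 21 integrin chains (13 alpha and 8 beta), 8 laminin chains and 4 syndecans. A symbol had to be ITGA or ITGB with a number, ITGAV, LAMA, LAMB or LAMC with a number, or SDC1 to SDC4, so the centromere protein gene ITGB3BP and the pseudogene LAMB2P1 were not taken. LAMB3 and LAMA5 shared their rows with a microRNA symbol and were left out, as was a further row that names ITGA1 beside PELO.

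Integrins are heterodimers of an alpha and a beta chain that bind matrix proteins outside the cell and talin-linked actin inside it. Laminins are trimers of an alpha, a beta and a gamma chain and form the backbone of basement membranes. Syndecans are transmembrane heparan sulfate proteoglycans that act beside integrins as coreceptors, and hepatocytes are a classical source of SDC1, SDC2 and SDC4. Signalling through MEK and the kinase ERK lies downstream of integrin contact and also feeds back on adhesion genes.

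The cells were HepG2, a human hepatoma line, grown as 1 cell line throughout, so the groups describe that line and not liver tissue. They received the MEK inhibitor PD98059 at 2.5 uM (the labelling protocol gives this unit, while the treatment labels print 2.5M) or its solvent DMSO for 1 h, and then spent 8 h in DMEM lacking histidine or in complete DMEM, with inhibitor or solvent kept on. The 4 groups of 4 arrays, each array from an independent incubation, were PD98059 without histidine (PD-His), PD98059 in complete medium (PD-DMEM), DMSO without histidine (DMSO-His) and DMSO in complete medium (DMSO-DMEM). Values are log2 expression as deposited, a change is a difference of group means on that scale ± its SE, and a gene was called at a limma p adjusted by Benjamini-Hochberg over all 22464 genes of under 0.05.

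Array medians lay between 6.2 and 6.28. All 8 measured hepatocyte markers, ALB and AFP among them, had group means between 8.24 and 13.68, above the median of the whole table at 6.22. They averaged 11.05 to 11.13 on PD-His arrays against 11.16 to 11.20 on PD-DMEM arrays, and 10.99 to 11.04 on DMSO-His arrays against 11.08 to 11.13 on DMSO-DMEM arrays, lower on depletion with no overlap. Of the 6 fibroblast markers, PDGFRB at 8.05, COL1A1 at 7.94 and COL1A2 at 6.65 lay above the table median over all arrays, and PDGFRA at 5.41, DCN at 3.91 and LUM at 3.29 below it. Of the 5 leukocyte markers, LYZ at 13.16, CD68 at 9.96 and CD14 at 6.40 lay above it, and PTPRC at 3.92 and CD3E at 5.94 below it. The endothelial markers had 2 of 5 above it, and the basal epithelial markers 2 of 2. The 6 fibroblast markers averaged 5.82 to 5.97 on PD-His arrays against 5.77 to 5.86 on PD-DMEM arrays, and 5.95 to 6 on DMSO-His arrays against 5.82 to 5.85 on DMSO-DMEM arrays, and the part of these markers in the results was not tested. Replicate 3 of PD-His lay farther from its group mean than any other array, by 0.111 (root mean square) over all genes and 0.102 over the members, against at most 0.0760 and 0.0643 elsewhere.

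Of the 33 members, 14 were called in at least 1 of the 5 comparisons and 19 in none. The 9 members with a mean at or below 6.22 were never called, against 16% of the 6915 genes at such levels, and 14 of the 24 brighter members were called at least once, against 57.7% of the 15549 brighter genes. The never-called members had means from 3.77 for ITGB6 to 8.70 for ITGA1, and their group means spread by at most 0.128. They were ITGA1, ITGA11, ITGA2B, ITGA3, ITGA4, ITGA7, ITGA8, ITGA9, ITGB2, ITGB3, ITGB4, ITGB6, ITGB7, ITGB8, LAMA1, LAMA2, LAMA4, LAMB4 and LAMC3.

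Histidine depletion with PD98059 present raised 3 members and lowered 2. That is 15.2% of the members, against a background of 27.4% of all genes called (12% higher and 15.3% lower). With DMSO, depletion raised 8 members and lowered 3, or 33.3% against a background of 33.3% (14.8% higher and 18.4% lower), so the count was at the background. The median change of the members with DMSO was 0.062, against 0.026 over all genes.

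PD98059 in medium without histidine raised 4 members and lowered 10, or 42.4% against 24.4% (13.5% higher and 10.9% lower). With complete medium it raised 4 and lowered 5, or 27.3% against 14.3% (7.59% higher and 6.74% lower). The response to depletion differed with the drug for 4 members, or 12.1% against 5.74%. All 4 differences were negative, where 2.91% of all genes had a positive and 2.83% a negative one. The comparisons share arrays, so their counts are not independent of each other.

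Single arrays were compared next. On depletion with PD98059, no array of one group reached the range of the other for 2 higher and 2 lower of the 33 members. Over all genes this held for 25.1% (10.6% higher and 14.5% lower). With DMSO this held for 15 higher and 4 lower members, where it held for 41.4% of all genes (20.8% higher and 20.5% lower). PD98059 without histidine separated 4 higher and 8 lower members, against 23.3% of all genes (12.5% higher and 10.9% lower). With histidine in the medium it separated 5 higher and 7 lower members, against 21.8% (12.2% higher and 9.66% lower). With both directions together, the share of the members was below that of all genes on depletion with PD98059 and above it in the other comparisons.

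Without replicate 3 of PD-His the calls rose in number over all genes as well as among the members. The fit takes the spread of a gene from all 16 arrays. For depletion with DMSO and for PD98059 in complete medium, leaving this array out therefore alters the p-values but not the changes. Depletion then called 9 members with PD98059 (7 higher and 2 lower), or 27.3% against 30.4% of all genes, and 16 with DMSO (13 and 3), or 48.5% against 40.3%. PD98059 called 17 without histidine (4 and 13), or 51.5% against 32.6%, and 12 in complete medium (5 and 7), or 36.4% against 19.1%. The responses of 8 members differed, all of them negative, or 24.2% against 14%.

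**Figure D1:**
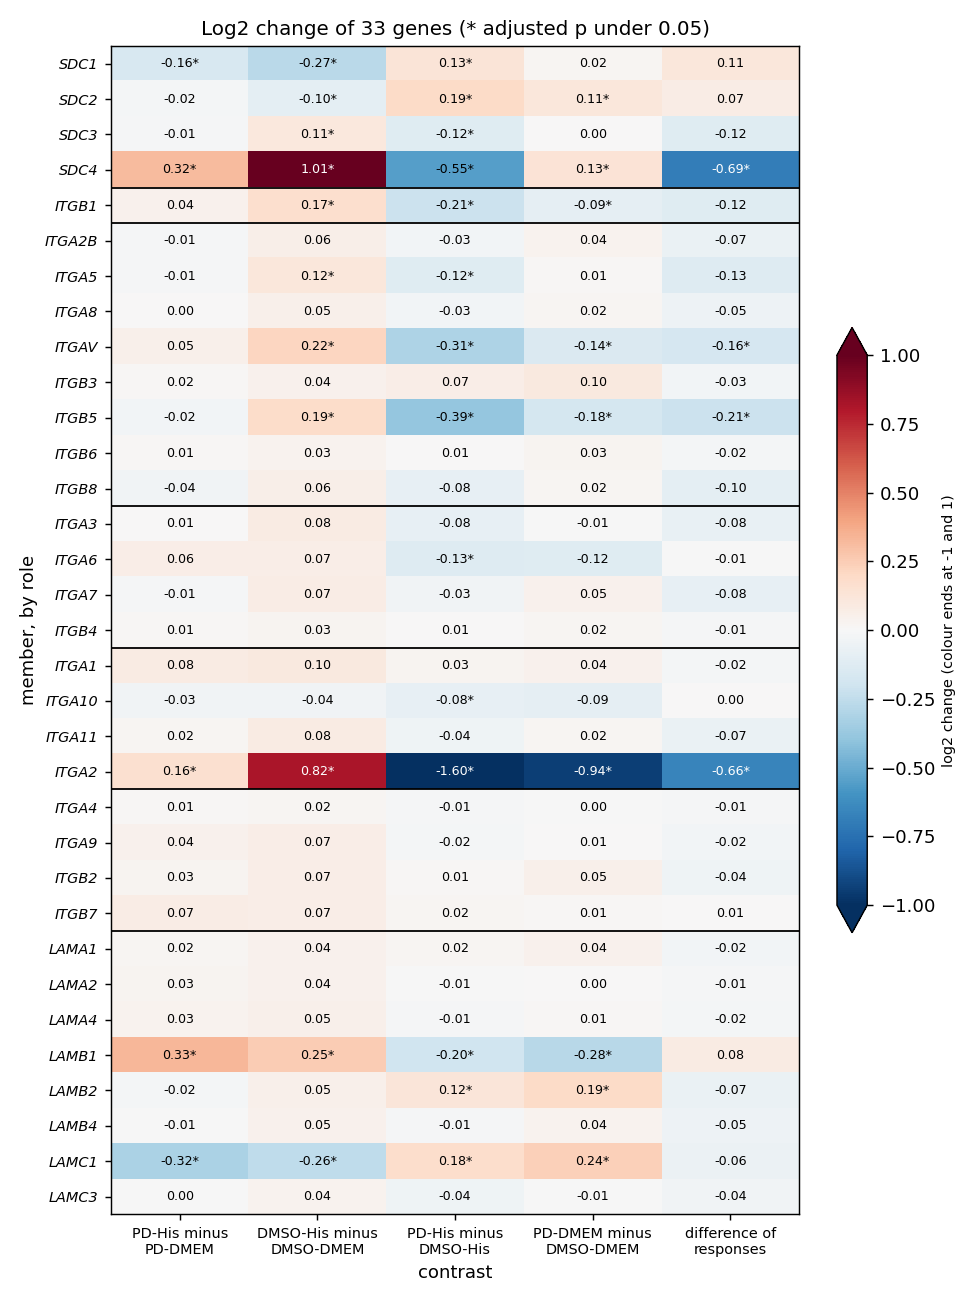
Log2 change (colour and printed number) of the 33 members, rows grouped by role, in the 5 comparisons, columns. An asterisk marks an adjusted p under 0.05. ITGA2 and SDC4 carry an asterisk in all 5 columns, and LAMB1 and LAMC1 have opposite colours in each of the 4 group comparisons.

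SDC4, the syndecan found in focal adhesions, moved most among the syndecans. It had 11.75, 11.81, 11.80 and 11.80 on the PD-His arrays and 11.48, 11.51, 11.45 and 11.46 on the PD-DMEM arrays. With DMSO it had 12.33, 12.38, 12.32 and 12.35 without histidine, against 11.35, 11.35, 11.36 and 11.29 in complete medium. The order was thus DMSO-His highest, then PD-His, PD-DMEM and DMSO-DMEM, with no overlap between any neighbours.

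Depletion raised SDC4 by 0.32 ± 0.0251 with PD98059 (1.25-fold, limma adjusted p = 7.03e-08) and by 1.01 ± 0.0251 with DMSO (2.01-fold, adjusted p = 5.4e-14). The responses differed by -0.69 ± 0.0356 (adjusted p = 1.24e-08). PD98059 moved SDC4 in opposite directions in the 2 media. It lowered it by a log2 change of -0.55 without histidine (95% interval -0.61 to -0.50, adjusted p = 1.55e-10) and raised it by 0.13 in complete medium (0.08 to 0.19, adjusted p = 0.00136). In bulk RNA, a change in the number of cells that hold a transcript and a change per cell cannot be told apart.

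The 250 bases before the SDC4 start are shown because SDC4 had the largest response to depletion among the members. They lie at chr20:45348425-45348674 on the minus strand of GRCh38.p14, from RefSeq, and run 5′ to 3′. Capitals mark matches on either strand to 5 motifs, AP-1 (TGANTCA), the C/EBP-ATF composite (TGATGNAA), EGR (GCGGGGGCG), SP1 (GGGGCGGGG) and ETS (CCGGAAGT).
SDC4: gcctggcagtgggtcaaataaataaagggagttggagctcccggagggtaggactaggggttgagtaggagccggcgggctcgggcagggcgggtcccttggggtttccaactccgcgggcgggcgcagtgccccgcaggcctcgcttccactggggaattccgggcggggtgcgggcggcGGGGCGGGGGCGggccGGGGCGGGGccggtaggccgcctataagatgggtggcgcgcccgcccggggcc

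The capitals in SDC4 are 1 EGR match, which begins 66 bases before the start, and 2 SP1 matches, which begin 69 and 53 bases before it. The first SP1 match overlaps the EGR match. Of 35116 promoter windows of this length in the same table, 4.72% held the EGR letters and 15.1% the SP1 letters. Among the 24 members with a promoter in the table, EGR was found in SDC4 and LAMC1, and SP1 in ITGA2, ITGA6, ITGB5, SDC1, SDC3 and SDC4. ITGB5 held the C/EBP-ATF composite and the ETS letters, which 3.14% and 3.42% of all windows held. None of the 24 held the AP-1 letters, against 6.57% of all windows. A match describes the letters and is not evidence of binding. ITGA3, ITGA7, ITGA9, ITGB2, ITGB3, ITGB4, LAMA1, LAMC3 and SDC2 were not in the table.

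SDC1, the main syndecan of epithelial cells, fell on depletion. It had 9.97, 9.96, 10.01 and 9.98 on PD-His arrays, against 10.10, 10.17, 10.16 and 10.13 on PD-DMEM arrays. It had 9.77, 9.83, 9.93 and 9.88 on DMSO-His arrays, against 10.12, 10.10, 10.14 and 10.13 on DMSO-DMEM arrays. The groups did not overlap in either pair. The changes were -0.16 ± 0.0314 with PD98059 (limma adjusted p = 0.000932) and -0.27 ± 0.0314 with DMSO (adjusted p = 3.38e-06), and PD98059 raised SDC1 by 0.13 without histidine (adjusted p = 0.00538). The 2 responses to depletion differed by 0.11, with a 95% interval from 0.02 to 0.21 and an adjusted p = 0.185.

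SDC2, a syndecan of mesenchymal cells and hepatocytes, had 10.44, 10.39, 10.32 and 10.36 on PD-His arrays, against 10.20, 10.19, 10.20 and 10.17 on DMSO-His arrays. In complete medium it had 10.41, 10.38, 10.41 and 10.40 with PD98059, against 10.30, 10.30, 10.26 and 10.28 with DMSO. PD98059 thus raised SDC2 in each medium, by 0.19 ± 0.0247 without histidine (limma adjusted p = 2.27e-05) and by 0.11 ± 0.0247 with it (adjusted p = 0.0043). When every array was first moved to a common median, the change in complete medium was 0.11 with an adjusted p = 0.0573. Depletion lowered SDC2 by a log2 change of -0.10 with DMSO (adjusted p = 0.00576). The responses to depletion differed by 0.07 (95% interval 0.00 to 0.15, adjusted p = 0.292).

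SDC3, known best from neurons, had 7.92, 7.93, 8.06 and 7.86 on PD-His arrays and 7.88, 7.94, 8.02 and 7.99 on PD-DMEM arrays. With DMSO it had 8.02, 8.06, 8.10 and 8.06 without histidine, against 7.91, 8.01, 7.95 and 7.94 in complete medium. It rose on depletion with DMSO by 0.11 ± 0.0400 (limma adjusted p = 0.0474), and the DMSO-His arrays lay above all DMSO-DMEM arrays. PD98059 without histidine lowered it by a log2 change of -0.12 (adjusted p = 0.0399), where the groups overlapped at replicate 3 of PD-His. The call on depletion was lost on leaving out any of 10 arrays and that on PD98059 on leaving out any of 9, with adjusted p up to 0.145. The responses to depletion differed by -0.12 (adjusted p = 0.279), or by -0.16 without replicate 3 of PD-His (adjusted p = 0.0313). With DMSO, depletion therefore raised SDC3 and SDC4 and lowered SDC1 and SDC2, and without histidine PD98059 moved all 4 the opposite way, in comparisons that share the DMSO-His arrays.

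ITGA2, the alpha chain of a collagen receptor with ITGB1, had the widest range of any member. It had 9.84, 9.91, 9.63 and 9.71 on PD-His arrays and 9.73, 9.58, 9.53 and 9.59 on PD-DMEM arrays, which overlapped. With DMSO it had 11.46, 11.40, 11.32 and 11.31 without histidine, against 10.59, 10.51, 10.55 and 10.56 in complete medium. Every array with PD98059 lay below every array with DMSO.

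PD98059 lowered ITGA2 by a log2 change of -1.60 ± 0.0557 without histidine (3.03-fold, limma adjusted p = 9.88e-12) and by -0.94 ± 0.0557 in complete medium (1.92-fold, adjusted p = 9.82e-09). Depletion with PD98059 raised it by 0.16 ± 0.0557 (adjusted p = 0.0405), a call that was lost on leaving out any of 7 arrays and had an adjusted p = 0.124 with only the 2 groups in the fit. With DMSO it raised ITGA2 by 0.82 ± 0.0557 (1.76-fold, adjusted p = 6.92e-09). The responses differed by -0.66 ± 0.0788 (adjusted p = 9.54e-05).

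The window before the ITGA2 start is shown because ITGA2 had the largest change with PD98059 among the members. It lies at chr5:52989102-52989351 on the plus strand, and its capitals are 1 SP1 match that begins 120 bases before the start.
ITGA2: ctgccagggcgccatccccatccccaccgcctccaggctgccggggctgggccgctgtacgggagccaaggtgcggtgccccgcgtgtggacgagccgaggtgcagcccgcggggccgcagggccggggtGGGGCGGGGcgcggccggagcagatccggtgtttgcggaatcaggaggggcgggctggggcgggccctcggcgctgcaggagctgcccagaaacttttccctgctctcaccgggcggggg

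The other collagen-binding alpha chains showed no such range. ITGA1 had group means of 8.76 in PD-His, 8.68 in PD-DMEM, 8.73 in DMSO-His and 8.63 in DMSO-DMEM, and ITGA11 had group means between 6.62 and 6.71. Neither was called in any comparison. ITGA10 had 6.23, 6.23, 6.35 and 6.26 on PD-His arrays, against 6.35, 6.35, 6.36 and 6.36 on DMSO-His arrays, and was called there at -0.08 ± 0.0289 (limma adjusted p = 0.0421), although the arrays overlapped. That call was lost on leaving out any of 11 arrays.

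ITGAV and ITGB5 encode the 2 chains of a vitronectin receptor that binds the RGD sequence. ITGAV had 11.10, 11.08, 10.95 and 11.01 on PD-His arrays, against 11.35, 11.35, 11.34 and 11.33 on DMSO-His arrays. In complete medium it had 11.05, 10.95, 10.97 and 10.96 with PD98059, against 11.15, 11.13, 11.11 and 11.12 with DMSO. No array with PD98059 reached an array with DMSO in either medium.

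ITGB5 had 10.43, 10.55, 10.54 and 10.52 on PD-His arrays, against 10.87, 10.96, 10.85 and 10.91 on DMSO-His arrays. In complete medium it had 10.52, 10.58, 10.53 and 10.52 with PD98059, against 10.72, 10.65, 10.75 and 10.73 with DMSO. The pattern of the 2 chains was alike: DMSO-His highest, DMSO-DMEM next, and the 2 PD98059 groups lowest and overlapping.

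PD98059 without histidine lowered ITGAV by a log2 change of -0.31 ± 0.0319 (limma adjusted p = 1.96e-06) and ITGB5 by -0.39 ± 0.0329 (adjusted p = 1.9e-07). In complete medium it lowered them by -0.14 (adjusted p = 0.00572) and -0.18 (adjusted p = 0.00126). With PD98059 the responses of ITGAV and ITGB5 to depletion were 0.05 (95% interval -0.01 to 0.12, adjusted p = 0.278) and -0.02 (-0.09 to 0.05, adjusted p = 0.705). With DMSO, depletion raised ITGAV by 0.22 (adjusted p = 3.98e-05) and ITGB5 by 0.19 (adjusted p = 0.000242). The responses differed by -0.21 for ITGB5 (adjusted p = 0.0121) and by -0.16 for ITGAV (adjusted p = 0.0424). The ITGAV difference was called with all arrays but lost on leaving out any of 13 arrays, and its adjusted p was 0.203 when every array was moved to a common median. Without replicate 3 of PD-His the response of ITGAV with PD98059 was 0.08 (adjusted p = 0.0296).

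ITGB1, the beta chain shared by the collagen and laminin receptors and by the fibronectin receptor with ITGA5, had 11.11, 11.14 and 11.09 on replicates 1, 2 and 4 of PD-His and 11 on replicate 3. It had 11.33, 11.30, 11.29 and 11.29 on DMSO-His arrays. In complete medium it had 11.07, 11.04, 11.05 and 11.03 with PD98059, against 11.14, 11.13, 11.13 and 11.14 with DMSO. Depletion with DMSO raised it by 0.17 ± 0.0270 (limma adjusted p = 0.000108), and PD98059 without histidine lowered it by a log2 change of -0.21 ± 0.0270 (adjusted p = 1.57e-05). Its response to depletion with PD98059 was 0.04 (adjusted p = 0.322), and the responses differed by -0.12 (95% interval -0.21 to -0.04, adjusted p = 0.0709). Without replicate 3 of PD-His the first was 0.07 (adjusted p = 0.0116) and the second -0.10 (adjusted p = 0.0273).

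The fall of ITGB1 with PD98059 in complete medium, at -0.09 (limma adjusted p = 0.0381), depended on the row and was lost on leaving out any of 10 arrays. ITGB1 has 3 rows, and the brightest, with a mean of 11.14, was used. The other 2, at 6.89 and 6.61, gave -0.05 (adjusted p = 0.289) and 0.06 (adjusted p = 0.608) in a fit over all 23780 rows with 1 symbol. For PD98059 without histidine these 2 rows gave -0.11 (adjusted p = 0.00582) and -0.10 (adjusted p = 0.255), and for depletion with DMSO 0.07 (adjusted p = 0.0768) and 0.23 (adjusted p = 0.00342).

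ITGA5, the alpha chain of the fibronectin receptor, had 6.89, 6.85, 6.96 and 6.93 on PD-His arrays, against 7.03, 6.98, 7.04 and 7.07 on DMSO-His arrays. It had 6.87, 6.92, 6.95 and 6.94 on PD-DMEM arrays, against 6.88, 6.93, 6.92 and 6.92 on DMSO-DMEM arrays. Depletion with DMSO raised it by 0.12 ± 0.0287 (limma adjusted p = 0.00433) and PD98059 without histidine lowered it by a log2 change of -0.12 (adjusted p = 0.00411). The DMSO-His arrays stood above all others. The other 5 RGD-binding chains measured, ITGA2B, ITGA8, ITGB3, ITGB6 and ITGB8, were not called in any comparison.

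**Figure D2:**
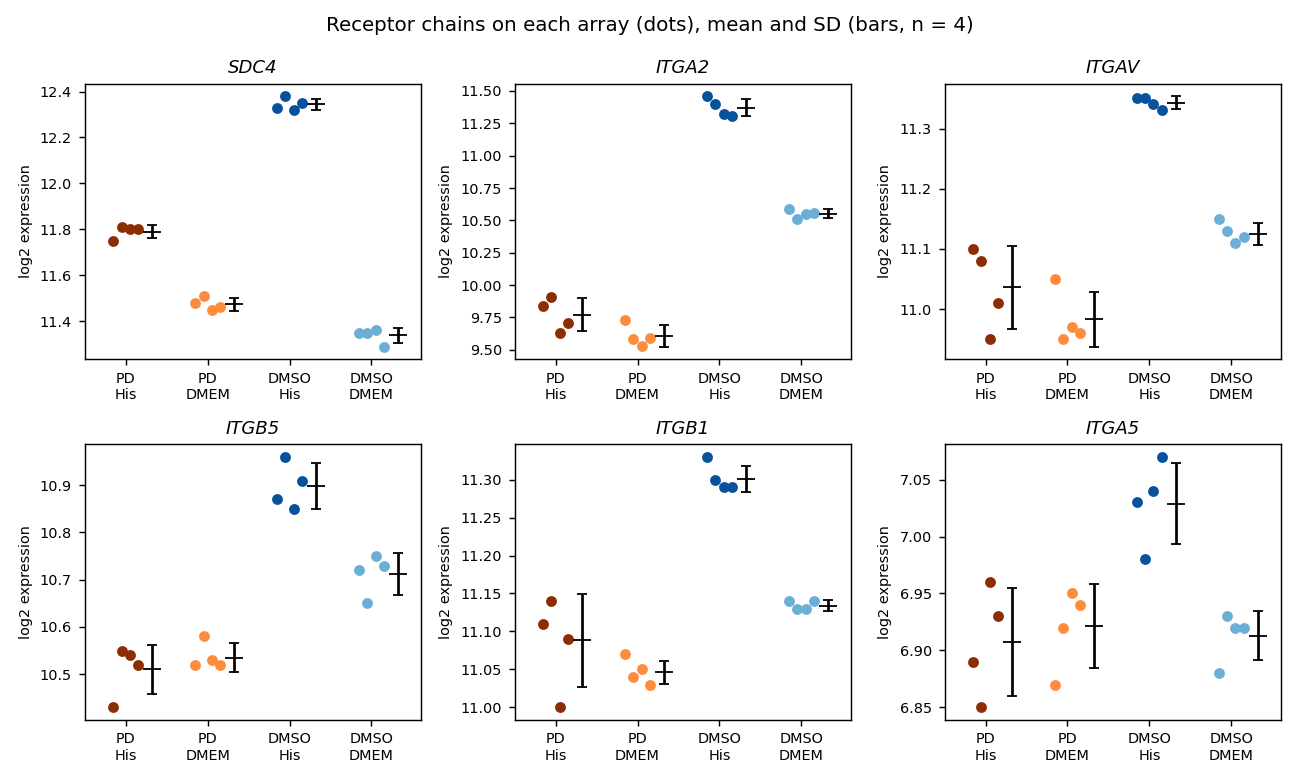
Log2 expression (vertical axis, a separate range in each panel) of SDC4, ITGA2, ITGAV, ITGB5, ITGB1 and ITGA5 on each array, with the 4 groups along the horizontal axis and the mean and SD of 4 arrays beside the dots. DMSO-His is the highest group in every panel, and for ITGA2, ITGAV and ITGB5 both PD98059 groups lie below DMSO-DMEM.

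Chains of laminin receptors had small changes. ITGA6, the alpha chain that pairs with ITGB1 or ITGB4, had 10.58, 10.55, 10.32 and 10.48 on PD-His arrays, against 10.63, 10.63, 10.62 and 10.59 on DMSO-His arrays. It had 10.51, 10.38, 10.40 and 10.40 on PD-DMEM arrays, against 10.56, 10.55, 10.54 and 10.53 on DMSO-DMEM arrays. PD98059 lowered it without histidine by a log2 change of -0.13 ± 0.0445 (limma adjusted p = 0.0407), a call lost on leaving out any of 12 arrays. Without replicate 3 of PD-His it was -0.08 (adjusted p = 0.0686). In complete medium the change was -0.12 (adjusted p = 0.0800), or -0.12 with an adjusted p = 0.00586 without replicate 3 of PD-His. Depletion with DMSO gave 0.07 (adjusted p = 0.250).

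ITGB4, the beta chain of hemidesmosomes, had 8.04, 7.98, 8.17 and 8.07 on PD-His arrays and 8.01, 8.04, 8.08 and 8.07 on PD-DMEM arrays. With DMSO it had 8.05, 8.06, 8.09 and 8.04 without histidine and 8.02, 8.05, 8.03 and 8.01 in complete medium, so all groups overlapped. ITGA3 and ITGA7, the alpha chains of further laminin receptors, had group means from 7.48 to 7.57 and from 6.77 to 6.84. ITGA4, ITGA9, ITGB2 and ITGB7, chains of leukocyte integrins and their relatives, were not called in any comparison.

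Among the laminins, LAMB1 and LAMC1 encode a beta and a gamma chain that enter the same trimers, and they moved in opposite directions. LAMB1 had 10.61, 10.67, 10.56 and 10.58 on PD-His arrays, against 10.31, 10.27, 10.25 and 10.25 on PD-DMEM arrays. It had 10.81, 10.84, 10.76 and 10.79 on DMSO-His arrays, against 10.56, 10.52, 10.55 and 10.56 on DMSO-DMEM arrays. Depletion raised it in each setting, with no overlap.

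LAMC1 had 10.98, 10.89, 10.81 and 10.81 on PD-His arrays, against 11.24, 11.17, 11.16 and 11.18 on PD-DMEM arrays. It had 10.66, 10.74, 10.70 and 10.69 on DMSO-His arrays, against 10.97, 10.93, 10.97 and 10.94 on DMSO-DMEM arrays. Depletion lowered it in each setting, also with no overlap.

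The response of LAMB1 to depletion was 0.33 ± 0.0275 with PD98059 (1.26-fold, limma adjusted p = 1.09e-07) and 0.25 ± 0.0275 with DMSO (1.19-fold, adjusted p = 1.48e-06). That of LAMC1 was -0.32 ± 0.0350 with PD98059 (adjusted p = 2.89e-06) and -0.26 ± 0.0350 with DMSO (adjusted p = 1.92e-05). The differences of responses were 0.08 for LAMB1 (95% interval -0.003 to 0.16, adjusted p = 0.318) and -0.06 for LAMC1 (-0.17 to 0.05, adjusted p = 0.619).

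PD98059 moved both chains against the direction of depletion, in comparisons that share arrays with those above. It lowered LAMB1 by a log2 change of -0.20 without histidine (limma adjusted p = 4.57e-05) and -0.28 in complete medium (adjusted p = 3.03e-06). It raised LAMC1 by 0.18 (adjusted p = 0.00116) and 0.24 (adjusted p = 0.000169) in the same order. LAMB2, the alternative beta chain, had 9.33, 9.36, 9.44 and 9.39 on PD-His arrays, against 9.25, 9.29, 9.21 and 9.28 on DMSO-His arrays. It had 9.38, 9.43, 9.40 and 9.41 on PD-DMEM arrays, against 9.23, 9.17, 9.23 and 9.22 on DMSO-DMEM arrays. It rose with PD98059 by 0.12 ± 0.0285 without histidine (adjusted p = 0.0044) and by 0.19 ± 0.0285 in complete medium (adjusted p = 0.000183). With PD98059 against DMSO, LAMB2 thus moved with LAMC1 and opposite to LAMB1. On depletion LAMB2 was not called, at -0.02 with PD98059 (adjusted p = 0.672) and 0.05 with DMSO (adjusted p = 0.228).

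The windows before the starts of LAMB1, at chr7:108003162-108003411 on the minus strand, and of LAMC1, at chr1:183023170-183023419 on the plus strand, are set side by side because these chains moved in opposite directions. LAMB1 held none of the 5 motifs, and LAMC1 held 1 EGR match, on the reverse strand, that begins 181 bases before the start.
LAMB1: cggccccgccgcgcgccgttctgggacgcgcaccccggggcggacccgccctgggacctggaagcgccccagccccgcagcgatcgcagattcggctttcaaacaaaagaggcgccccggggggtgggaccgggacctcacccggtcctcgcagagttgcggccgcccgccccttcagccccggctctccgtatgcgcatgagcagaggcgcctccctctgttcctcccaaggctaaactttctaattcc
LAMC1: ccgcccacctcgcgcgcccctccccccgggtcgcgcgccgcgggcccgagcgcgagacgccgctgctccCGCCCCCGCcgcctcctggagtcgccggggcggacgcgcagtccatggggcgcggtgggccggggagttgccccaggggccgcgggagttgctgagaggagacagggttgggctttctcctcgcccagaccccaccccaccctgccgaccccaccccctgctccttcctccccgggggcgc

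The other 5 laminin chains measured, LAMA1, LAMA2, LAMA4, LAMB4 and LAMC3, were not called in any comparison. Their means over all arrays ran from 4.57 for LAMA2 to 8.15 for LAMC3.

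**Figure D3:**
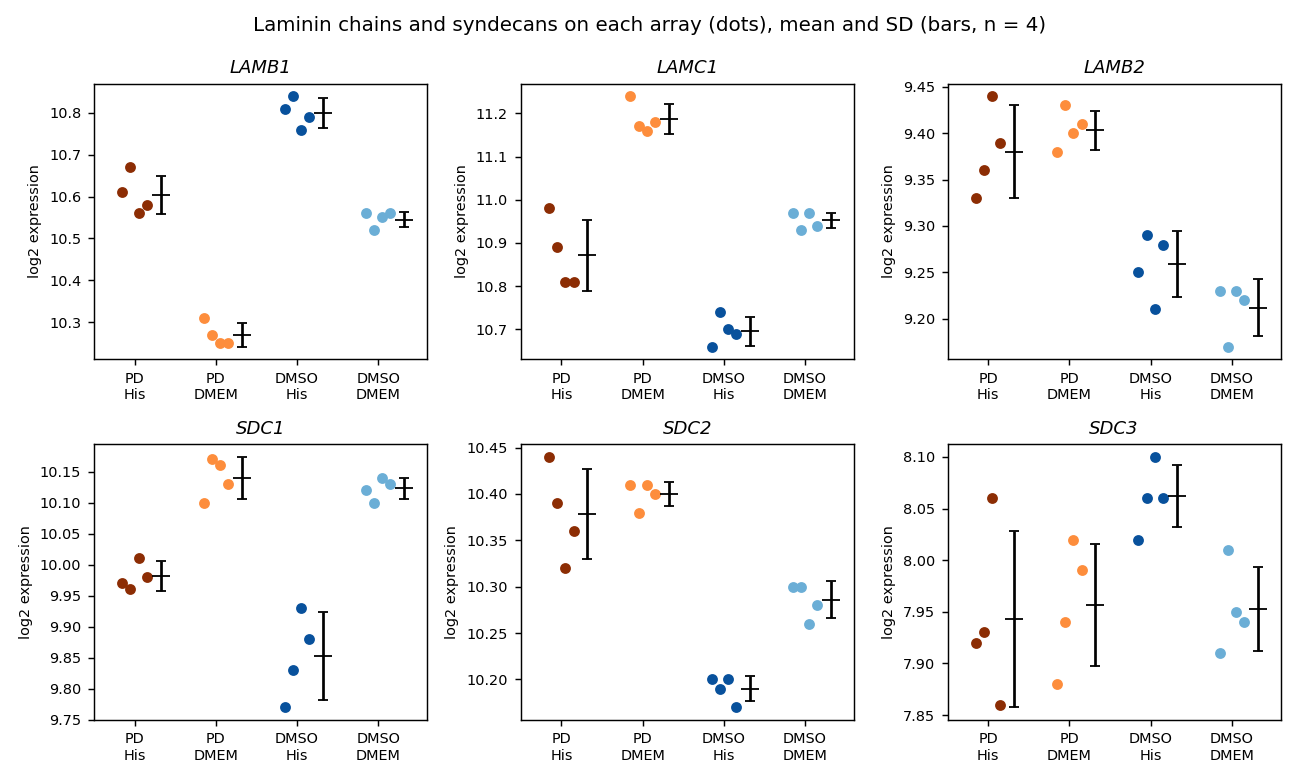
Log2 expression (vertical axis, a separate range in each panel) of LAMB1, LAMC1, LAMB2, SDC1, SDC2 and SDC3 on each array, with the 4 groups along the horizontal axis and the mean and SD of 4 arrays beside the dots. LAMB1 is higher and LAMC1 lower in each His group than in its DMEM group, and LAMB2 and SDC2 are higher in both PD98059 groups.

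**Figure D4:**
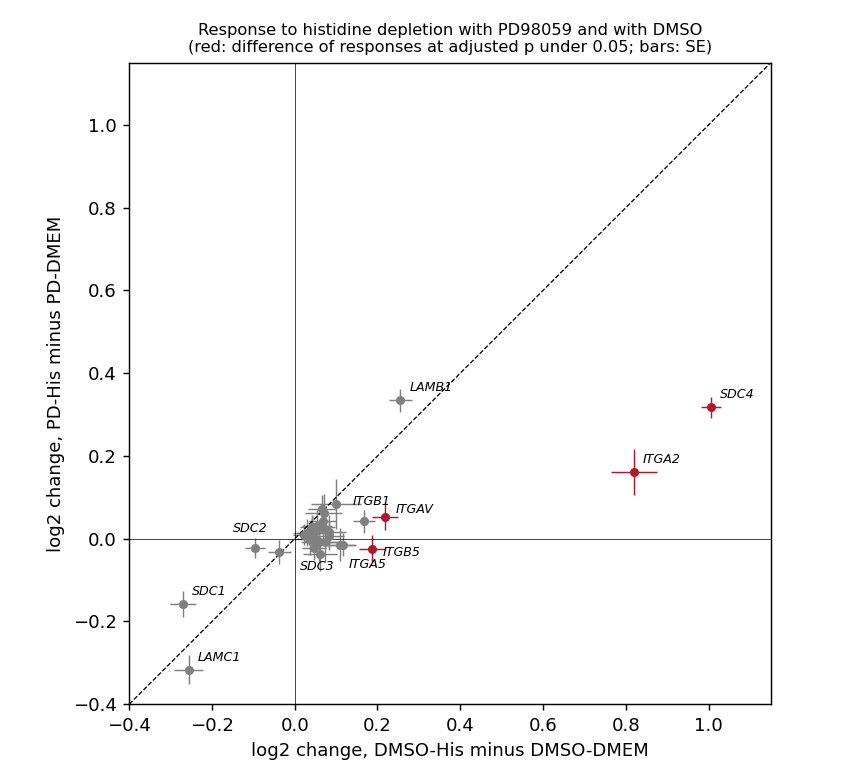
Response to histidine depletion with PD98059 (vertical axis, PD-His minus PD-DMEM) against that with DMSO (horizontal axis, DMSO-His minus DMSO-DMEM) for the 33 members, in log2 units with SE bars. The dashed line marks equal responses. SDC4, ITGA2, ITGB5 and ITGAV, in red, lie below it with a called difference, and LAMB1, LAMC1 and SDC1 lie apart from the centre nearer to it.

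Genes around these receptors were counted in lists drawn from textbook knowledge, written with earlier results of these data known. The shares of the lists are descriptive, and no list was tested as a set. Of 19 measured basement membrane and matrix partners, depletion raised 2 and lowered 5 with PD98059 (36.8% against 27.4% of all genes called), and raised 1 and lowered 3 with DMSO (21.1% against 33.3%). PD98059 raised 3 and lowered 3 without histidine (31.6% against 24.4%), and raised 3 and lowered 2 in complete medium (26.3% against 14.3%). THBS1, which encodes the matrix protein thrombospondin 1, rose on depletion by 0.58 with PD98059 (limma adjusted p = 8.52e-11) and by 0.56 with DMSO (adjusted p = 6.3e-11). PD98059 lowered it by a log2 change of -0.44 without histidine (adjusted p = 2.94e-09) and -0.46 in complete medium (adjusted p = 5.94e-09). SPARC, a collagen-binding matrix protein, fell on depletion by 0.25 with PD98059 and by 0.21 with DMSO. The response differed for 1 gene of the list (5.26%, against 5.74% of all genes), a share near the background. That gene was SPP1, which encodes the integrin ligand osteopontin, at -0.19 (adjusted p = 0.0105, or 0.0855 with every array moved to a common median).

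Of 23 genes of the plaque that ties integrins to actin, depletion raised 3 and lowered 8 with PD98059 (47.8% against 27.4% of all genes called), and raised 5 and lowered 10 with DMSO (65.2% against 33.3%). PD98059 raised 7 and lowered 10 without histidine (73.9% against 24.4%), and raised 4 and lowered 4 in complete medium (34.8% against 14.3%). TNS4, a tensin that binds beta chain tails, fell with PD98059 by 1.10 without histidine (limma adjusted p = 6.58e-12) and by 0.91 in complete medium (adjusted p = 1.58e-10). Depletion with DMSO raised the adhesion kinase gene SRC by 0.50 (adjusted p = 3.97e-10) and the focal adhesion gene ZYX by 0.29 (adjusted p = 7.55e-06). It lowered TNS3 by a log2 change of -0.27 (adjusted p = 6.03e-07) and LIMS1 by -0.21 (adjusted p = 1.09e-06). The responses differed for 4 genes (17.4%, against 5.74% of all genes), SRC at -0.20, ZYX at -0.24, TNS4 at -0.20 and TNS3 at 0.15. The TNS4 difference was lost on leaving out any of 10 arrays (adjusted p 0.0641 to 0.0809) and that of TNS3 on leaving out any of 4 (0.0525 to 0.0538), and with every array moved to a common median their adjusted p was 0.0513 and 0.0801. The median change of this list on depletion with DMSO was 0.002, against 0.026 over all genes.

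Of 19 other heparan sulfate proteoglycans and enzymes of their chains, depletion raised 1 and lowered 7 with PD98059 (42.1% against 27.4% of all genes called), and raised 1 and lowered 5 with DMSO (31.6% against 33.3%). PD98059 raised 3 and lowered 2 without histidine (26.3% against 24.4%), and raised 3 and lowered 0 in complete medium (15.8% against 14.3%), so 3 of the 4 shares were near the background. SULF2, which trims sulfate from heparan sulfate outside the cell, rose with PD98059 by 0.26 without histidine (limma adjusted p = 3.39e-05) and by 0.17 in complete medium (adjusted p = 0.0027). SDCBP, which encodes the syndecan-binding adaptor syntenin, fell on depletion by 0.27 with PD98059 (adjusted p = 6.34e-06) and by 0.14 with DMSO (adjusted p = 0.0019). The response differed for 1 gene (5.26%, against 5.74% of all genes), a share near the background. That gene was HS6ST1, a heparan sulfate sulfotransferase, at -0.22 (adjusted p = 0.00716).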

How the data were processed

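Biotin-labelled RNA was hybridised to 1-colour Affymetrix arrays. The deposited values are log2 expression, 1 column per array, and the authors used RMA and Partek 6.6 with hg19, per the submitters' processing notes. Nothing further on their settings is given in the sources used here. The scanner's own output did not enter, so neither background nor scan batch was looked at. Each of the 4 arrays of a group came from its own incubation. The spread in the tests therefore holds differences of incubation, labelling and hybridisation together.

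Of 70459 rows, 23780 had 1 symbol in the platform annotation, 1543 several and 45136 none. Each of 22464 symbols was represented by its brightest row on average. limma 3.58.1 (R 4.3.3) fitted the 4 groups on all 16 arrays without a block, and the fit was tested on simulated data. Deviations of same-numbered arrays of different groups correlated by -0.323 to 0.514, over 0.1 in 9 of 24 pairs, so the numbers were not taken to pair them. Replicate 3 of PD-His correlated with replicate 3 of PD-DMEM at 0.514, of DMSO-His at 0.427 and of DMSO-DMEM at -0.046. Replicate 1 of PD-His correlated with replicate 1 of PD-DMEM at 0.462.

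Members were taken by the symbol rule alone, but that rule and the lists were set with earlier results of these data known. The naming rule gave values on each array for up to 8 members per comparison called with at least 1.2-fold change and for anchors of each role (SDC1 to SDC4, ITGB1, ITGA6, ITGB4, LAMC1 and LAMB3, of which LAMB3 was left out because its row holds 2 symbols), and up to 4 genes of a partner list per comparison by adjusted p. Values on each array of ITGAV, ITGB5, ITGA5, ITGA10 and LAMB2 where they had smaller changes, and the levels of ITGA1, ITGA3, ITGA7 and ITGA11, were added after they were seen. Promoter sequences are from RefSeq (GRCh38.p14), where 24 of 33 members matched by symbol.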

Additional observations from a re-analysis of the deposited data

Results flagged for a closer look

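For 4 members the response to histidine depletion differed with PD98059 by a test of the difference itself, with limma adjusted p as given above. The differences were -0.69 for SDC4, -0.66 for ITGA2, -0.21 for ITGB5 and -0.16 for ITGAV.

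In 1 of 60 groups of 4 arrays examined, 1 array lay far from the other 3, where chance gives about 3. It was replicate 4 of DMSO-DMEM for SDC4, at 11.29 against 11.35 to 11.36 on the other 3 arrays. Without that array the call of SDC4 in each comparison stayed on the same side of the threshold.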

How the results depend on the processing

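Of 43 called member values, none changed sign under up to 8 other settings or on leaving out any of the 16 arrays, and 35 also stayed called throughout. The other 8 were SDC3 in both of its calls, ITGA2 on depletion with PD98059, ITGB1 and SDC2 with PD98059 in complete medium, ITGA10 and ITGA6 with PD98059 without histidine, and the ITGAV difference. Array weights called 10 members for depletion with PD98059 (30.3%, against 32.7% of all genes), 20 with DMSO (60.6% against 47.8%) and 13 for the difference of responses (39.4% against 20.5%), of which 3 were positive. Another quantile normalization called 8 for depletion with PD98059 (6 higher and 2 lower, 24.2% against 27.9%). It called 7 for the difference (1 positive and 6 negative, 21.2% against 6.64%). With only the groups of a comparison in the fit, 17 were called for depletion with DMSO (51.5% against 41.4%). This setting was not run for the difference of responses. The causes were not tested. Leaving out 1 array gave 4 to 9 calls for depletion with PD98059 (12.1% to 27.3%, against 24.5% to 30.4% of all genes). With DMSO it gave 10 to 16 (30.3% to 48.5% against 29.4% to 40.3%). For PD98059 it gave 11 to 17 without histidine (33.3% to 51.5% against 21.6% to 32.6%) and 8 to 12 in complete medium (24.2% to 36.4% against 11.5% to 19.1%). The difference had 3 to 8 (9.09% to 24.2% against 4.08% to 14%). Both the count and the share of all genes were highest without replicate 3 of PD-His in each comparison. With the replicate number as a block the counts were 5, 12, 15, 9 and 5 in the order of the report. These were 15.2%, 36.4%, 45.5%, 27.3% and 15.2% of the members, against 28.7%, 35.8%, 25.8%, 15.6% and 6.64% of all genes. Of the 16 arrays, 6 deviated most like their own number. The uncalled response of ITGB5 to depletion with PD98059 changed sign to 0.0063 with another quantile normalization and ranged from -0.0374 to 0.0011 on leaving out 1 array, with the highest value without replicate 1 of PD-His. Over all genes, the difference of responses was called for 1289, against 4615 with array weights, 3145 without replicate 3 of PD-His and 782 with a common array median, and PD98059 in complete medium for 3218, against 5920 with array weights. Each row of ITGB1 was tested as an alternative chosen after seeing the data.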

Other observations

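Proteases at the cell surface and their inhibitors were a further list drawn from textbook knowledge, also written with earlier results of these data known. Of 18 measured, PD98059 without histidine lowered 9 and raised 0 (50% against 24.4% of all genes called). In complete medium it lowered 7 and raised 1 (44.4% against 14.3%). Of all genes, 10.9% and 6.74% were lowered in the same order. Depletion raised 1 and lowered 5 with PD98059 (33.3% against 27.4% of all genes called), and raised 7 and lowered 2 with DMSO (50% against 33.3%). SERPINE2, a serine protease inhibitor, changed with PD98059 by -0.57 without histidine (limma adjusted p = 6.19e-11) and by -0.20 in complete medium (adjusted p = 1.22e-05). PLAU, which encodes urokinase, changed by -0.37 (adjusted p = 9.16e-09) and -0.15 (adjusted p = 0.000277), and its receptor gene PLAUR by -0.35 (adjusted p = 2.82e-07) and -0.20 (adjusted p = 0.000243). The responses to depletion differed for 4 genes of the list (22.2%, against 5.74% of all genes), SERPINE2 at -0.36, TIMP1 at -0.31, PLAU at -0.21 and TIMP3 at -0.20. The TIMP3 difference was lost on leaving out any of 10 arrays (adjusted p 0.0515 to 0.0704) and with another quantile normalization (adjusted p = 0.0791). TIMP1, a metalloprotease inhibitor, fell on depletion by 0.19 with PD98059 (adjusted p = 0.000348) and rose by 0.13 with DMSO (adjusted p = 0.00706).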
